A study of Mus musculus with 6 samples.

Results

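The glycolytic pathway was followed in ribosome-bound RNA of parvalbumin neurons through 10 enzyme genes: Hk1, Pfkm, Pfkp, Aldoa, Aldoc, Pgk1, Eno2, Pkm, Ldha and Ldhb. The members were the rows of the deposited raw count matrix that carry these symbols, and all 10 were found among its 23306 rows. All 10 also passed the filter on low counts that left 12449 genes for testing. In the study, tagged ribosomes were pulled down from frontal cortex of male C57BL6 mice that had either a conditional knockout of Fxr1 driven by PV-Cre or wild type Fxr1. Per the labels' protocols, the mice of both groups come from a cross of a parvalbumin-Cre driver line with the RPL22HA/WT line, in which Cre puts a haemagglutinin tag on the ribosomal protein Rpl22. The labels give neither the age of the mice nor the number of animals behind each library, nor whether the wild type mice carried a floxed Fxr1 allele. The libraries used were knockout replicates 1 and 3 and wild type replicates 2 and 3, so every comparison was 2 against 2 libraries. Their spread may be partly technical.

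Glycolysis splits glucose into pyruvate and yields ATP without oxygen, and lactate dehydrogenase then interconverts pyruvate and lactate. Several steps have isozymes made by separate genes, and brain cells differ in which they use: Aldoa is the aldolase of most tissues, while Aldoc is the brain form and is known as an astrocyte marker in cortex. Ldha encodes the muscle subunit of lactate dehydrogenase, linked to lactate production, and Ldhb the heart subunit, linked to use of lactate as a fuel. Parvalbumin interneurons fire fast and are known for a high energy demand.

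Reads can be assigned to an isozyme only where the gene sequences differ, so the coding stretches in which each pair was most alike are shown first. They were read from GENCODE M21 transcripts on mm10, as the ungapped 60-base window within a single coding exon of both genes with the fewest differences. Capitals mark the bases that differ within each pair.
Aldoa: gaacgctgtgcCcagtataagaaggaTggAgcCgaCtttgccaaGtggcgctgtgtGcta
Aldoc: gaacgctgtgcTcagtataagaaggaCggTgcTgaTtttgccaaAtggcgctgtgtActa
Ldha: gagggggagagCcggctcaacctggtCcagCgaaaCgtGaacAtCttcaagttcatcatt
Ldhb: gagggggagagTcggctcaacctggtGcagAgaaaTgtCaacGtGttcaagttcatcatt
Pfkm: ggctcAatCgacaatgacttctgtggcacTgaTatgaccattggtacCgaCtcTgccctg
Pfkp: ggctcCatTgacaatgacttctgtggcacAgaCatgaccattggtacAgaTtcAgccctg
The Aldoa stretch lies at chr7:126796679-126796738 on the minus strand and the Aldoc stretch at chr11:78325066-78325125 on the plus strand. The Ldha stretch lies at chr7:46850237-46850296 (plus) and the Ldhb stretch at chr6:142498560-142498619 (minus). The Pfkm stretch lies at chr15:98121256-98121315 (plus) and the Pfkp stretch at chr13:6620933-6620992 (minus). Each pair differed at 7 of 60 bases even there. Over the aligned coding sequence, identity was 75.9% for Aldoa and Aldoc, 73.0% for Ldha and Ldhb and 69.4% for Pfkm and Pfkp, and the longest identical runs were 26, 18 and 20 bases.

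Copies elsewhere in the genome were a different matter. Windows of 50 bases were taken along the longest coding transcript of each gene and looked up, on both strands, in the transcripts of all other annotated genes. For Aldoc and Pfkm 0% of windows were found elsewhere, and for Eno2 0.255%. The share was 13.5% for Aldoa, 16.6% for Ldha and 27.0% for Ldhb. It reached 34.4% for Pkm and 68.0% for Pgk1, mostly through pseudogenes. A Pgk1 coding stretch at chrX:106194660-106194719 (plus), shown because it recurs unchanged in the pseudogene Pgk1-rs7 at chr12:10899882-10899941 (minus), illustrates this.
Pgk1: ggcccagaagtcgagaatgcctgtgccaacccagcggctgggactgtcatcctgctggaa
The labels do not say how reads that fit several places were counted, so the level of Pgk1 is uncertain, as is, to a lesser extent, that of Pkm and Ldhb. Pfkp shared 17.1% of its windows with its neighbour Pitrm1.

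The libraries held 10167491 and 10288250 counts in knockout and 9696126 and 10301280 in wild type. Knockout replicate 1 had more ribosomal RNA precursor Rn45s than the others, at 0.711% of its counts against 0.283% to 0.315%. Fxr1 (chromosome 3, 34019943 to 34070322) measured 17.8 and 18.7 CPM (counts scaled to the library total) in knockout and 98.4 and 101 CPM in wild type, with a log2 fold change of -2.45 (SE 0.10; edgeR adjusted p = 1.83e-15). Pvalb was present in all libraries at 241 to 264 CPM, and Gad1, a gene of inhibitory neurons in general, at 4048 to 4354 CPM. The 12 parvalbumin neuron markers, Gad1 among them, summed to 14914 and 14594 CPM in knockout and 15335 and 14898 CPM in wild type. Enrichment over unselected RNA was not tested. The 13 astrocyte markers were also detected, summing to 950.4 and 1055 CPM in knockout and 994 and 943 CPM in wild type, led by Slc1a2 at 445 to 522 CPM. The 12 excitatory neuron markers, led by Camk2a, summed to 1130.0 and 1171 CPM in knockout and 1171 and 1078 CPM in wild type. The enzyme levels below thus describe the pull-down as a whole. In such bulk RNA, fewer cells of a type and less RNA per cell cannot be told apart.

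Together the 10 enzymes made up 0.707% and 0.702% of the counts in the knockout libraries and 0.716% and 0.749% in the wild type libraries. Summed, this was 7045 ± 38.0 CPM in knockout and 7327 ± 235 CPM in wild type (SD, n = 2 each), a ratio of 0.961. Both knockout libraries lay below both wild type libraries, but the distance to the lower wild type library was smaller than the gap between the wild type libraries. With TMM-scaled totals the sums were 7137 and 6959 CPM in knockout and 7115 and 7537 CPM in wild type, and the genotypes overlapped. No test was made of this sum, because the members were chosen with results of these data known.

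To compare levels between genes, CPM was divided by the length in kb of each gene's merged annotated exons. Of the 11707 tested genes with such a length, Ldhb stood at rank 12, Pkm at 32, Aldoa at 35, Pfkm at 69 and Eno2 at 71. On this scale Ldhb averaged 625 ± 25.8 CPM per kb over all libraries (SD, n = 4), Pkm, the final ATP-forming pyruvate kinase, 427 ± 19.9, and Aldoa 392 ± 14.9. Pfkm, the muscle form of the rate-setting phosphofructokinase, averaged 244 ± 4.76 CPM per kb and Eno2, the neuron-specific enolase, 243 ± 3.76. Hk1, the hexokinase that traps glucose in the cell, followed at 56.2 ± 2.56, then Pgk1, an ATP-forming kinase, at 45.7 ± 0.966 and Aldoc at 36.8 ± 4.33. Pfkp, the platelet form, averaged 17.7 ± 0.710 and Ldha 8.78 ± 1.22 CPM per kb. The ranges over the libraries overlapped between Pkm and Aldoa and between Pfkm and Eno2. Within each library, however, Pkm stood above Aldoa. Pkm was at 423 and 412 CPM per kb in knockout, where Aldoa was at 378 and 392. In wild type Pkm was at 418 and 457 and Aldoa at 386 and 413. Pfkm and Eno2 changed order between libraries, with Eno2 higher in wild type replicate 2 and Pfkm higher in the others. All other neighbours in this order had ranges that did not overlap.

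On mm10, in pathway order, the genes lie as follows. Hk1 is at chr10:62268855-62379908, Pfkm at chr15:98092589-98132451 and Pfkp at chr13:6579768-6648777. Aldoa is at chr7:126795234-126800751, Aldoc at chr11:78322968-78327781 and Pgk1 at chrX:106187100-106203699. Eno2 is at chr6:124760053-124769673, Pkm at chr9:59656368-59679375, Ldha at chr7:46841475-46855627 and Ldhb at chr6:142490249-142507957. The deposited counts are per gene.

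**Figure D1:**
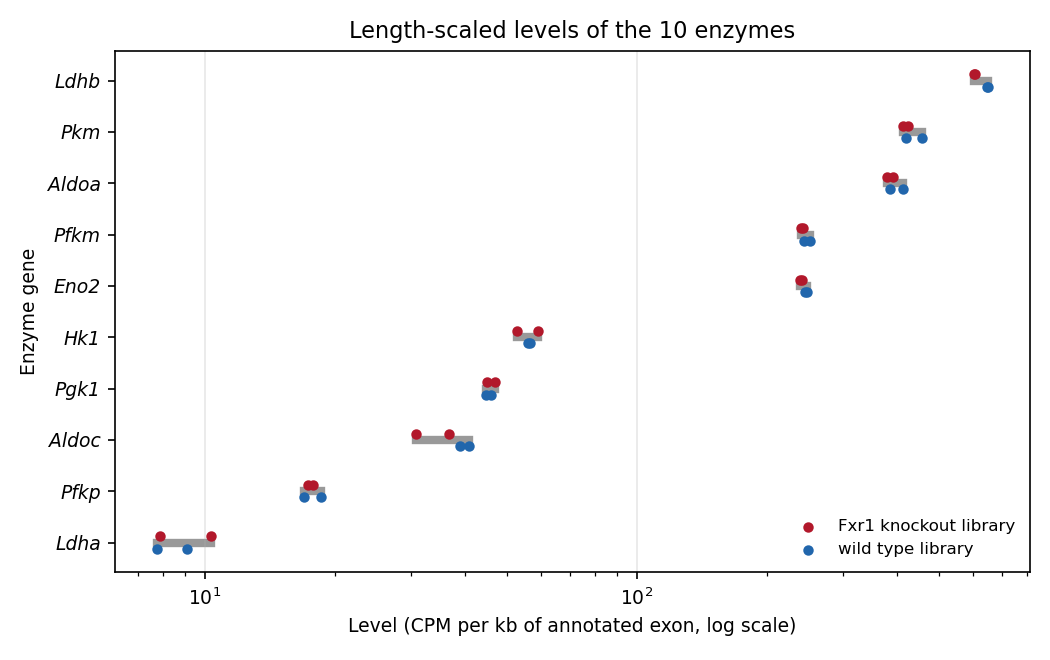
Length-scaled level of each enzyme gene (horizontal axis, CPM per kb of annotated exon, log scale) in the knockout (red, upper) and wild type (blue, lower) libraries, with a grey bar over the range of all libraries. Ldhb stands at the top near 625 CPM per kb and Ldha at the bottom near 8.78, with the genotypes close together in every row.

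The order depended in part on the length used. With the longest coding transcript in place of merged exons, Pkm at 879 CPM per kb passed Ldhb at 752, and Aldoa came to 737. Pfkp moved most, to 57.2 CPM per kb, because its merged exons span 13401 bases and its longest coding transcript 4145 bases. Ldha stayed last at 16.01 CPM per kb. Pkm makes alternatively spliced forms that a count per gene does not separate.

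The first comparison concerned the choice of isozyme. For lactate dehydrogenase, Ldhb had 9592 and 9755 counts in the knockout libraries and 9806 and 10504 in the wild type libraries. Ldha had 265 and 353 counts in knockout and 249 and 311 in wild type. Scaled by length, the Ldhb level was 76.3-fold and 58.3-fold that of Ldha in knockout and 83.0-fold and 71.2-fold in wild type. Ldha thus made up 1.29% and 1.69% of the length-scaled pair in knockout and 1.19% and 1.38% in wild type, and the genotypes overlapped. Of the raw counts of the pair, Ldha took 2.69% (95% exact Clopper-Pearson interval 2.38 to 3.03) and 3.49% (3.14 to 3.87) in knockout. It took 2.48% (2.18 to 2.80) and 2.88% (2.57 to 3.21) in wild type. These intervals cover counting error only. The intervals of the knockout libraries did not overlap each other, so libraries of 1 genotype differed by more than counting error.

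For aldolase, Aldoa had 11189 and 11739 counts in knockout and 10895 and 12383 in wild type, and Aldoc 1023 and 1233 in knockout and 1233 and 1371 in wild type. The length-scaled Aldoa level was 12.3-fold and 10.7-fold that of Aldoc in knockout and 9.90-fold and 10.1-fold in wild type. Aldoc made up 7.54% and 8.57% of the scaled pair in knockout and 9.17% and 8.99% in wild type. Here the genotypes did not overlap, and the share averaged 8.05% ± 0.726 in knockout and 9.08% ± 0.128 in wild type (SD, n = 2 each). The knockout libraries stood farther from each other than knockout replicate 3 did from either wild type library. The level of the share depended on the length. With full counts divided by the number of windows not shared with another gene, it averaged 4.45% in knockout and 5.04% in wild type. On raw counts the Aldoc share was 8.38% (7.89 to 8.88) and 9.51% (9.01 to 10.02) in knockout and 10.2% (9.63 to 10.7) and 9.97% (9.47 to 10.5) in wild type, and the interval of knockout replicate 3 overlapped those of both wild type libraries.

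For phosphofructokinase, Pfkm had 8228 and 8244 counts in knockout and 7885 and 8634 in wild type, and Pfkp 2368 and 2458 in knockout and 2201 and 2568 in wild type. Pfkp made up 6.69% and 6.92% of the scaled pair in knockout and 6.50% and 6.90% in wild type, and the genotypes overlapped. This share rests on the length of Pfkp. With full counts divided by the number of windows not shared with another gene, it was 19.6% ± 0.394 in knockout and 19.4% ± 0.701 in wild type. No reads were counted on those windows alone. They lie along a Pfkp transcript of 4145 bases, against 13401 bases of merged exons. The liver form, Pfkl, made up 4.05% ± 0.123 in knockout and 4.18% ± 0.426 in wild type of the scaled sum of Pfkl, Pfkm and Pfkp. Of the same sum by merged exons, Pfkp made up 6.53% ± 0.160 in knockout and 6.42% ± 0.297 in wild type.

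**Figure D2:**
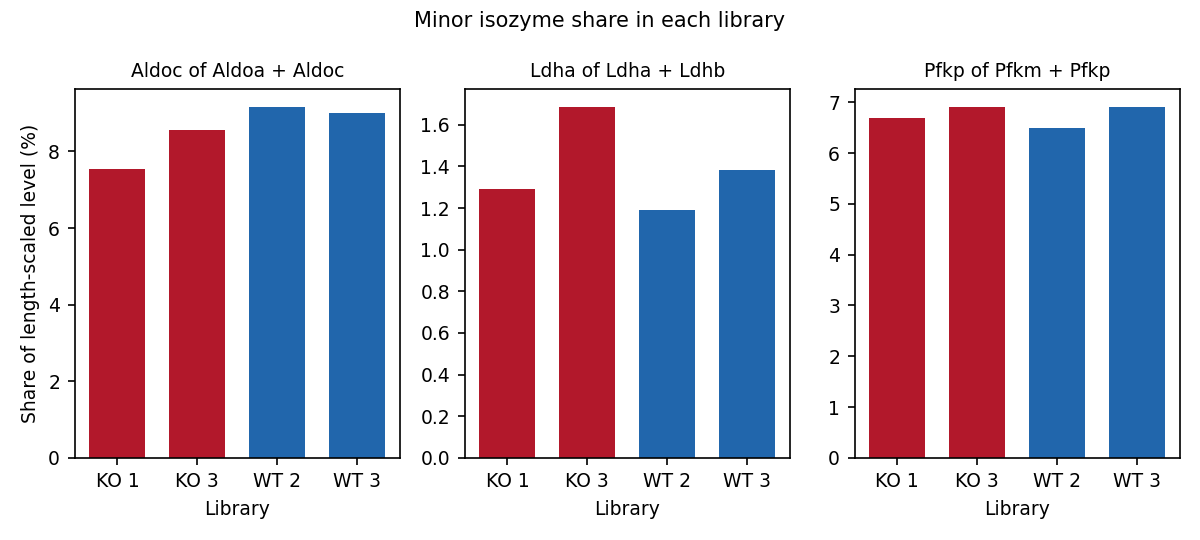
Share of the minor isozyme in the length-scaled level of each pair (vertical axis, percent, from 0, with a scale of its own in each panel) in each library, knockout (KO) in red and wild type (WT) in blue. Aldoc stands at 7.54% and 8.57% in knockout against 9.17% and 8.99% in wild type, while Ldha and Pfkp overlap between the genotypes.

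Hexokinase was close to a single-gene step when scaled by merged exons, and so was enolase by the counts as listed. Hk2, the insulin-responsive hexokinase, had 5 and 9 counts in knockout and 7 and 9 in wild type, and Hk1 had 5129 and 4645 in knockout and 4628 and 4985 in wild type. Hk1 made up at least 99.7% of the scaled level of Hk1 and Hk2 in every library. Eno2 made up 98.0% and 97.4% of the scaled enolase level (Eno1, Eno1b, Eno2 and Eno3) in knockout and 97.9% and 98.0% in wild type. The share was lower with full counts divided by the number of windows not shared with another gene. Eno2 then made up 92.8% and 91.5% in knockout and 93.4% and 92.9% in wild type. On that scale the genotypes did not overlap, by a small margin. The enolase share is uncertain, because Eno1 was listed with 0 to 1 counts per library. Of its 50-base windows, 72.2% recur in other genes, chiefly Eno1b, but 550 of 1978 recur in none. Why Eno1 had so few counts was not tested. If its reads were lost in counting, the Eno2 share is too high. Eno1b, listed in the table as Gm5506, had 86 and 103 counts in knockout and 75 and 88 in wild type.

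The second comparison asked whether the loss of Fxr1 changed these transcripts. In the edgeR quasi-likelihood test over all genes, 4 of 12449 genes (0.0321%) passed an adjusted p of 0.05, with 2 higher (0.0161%) and 2 lower (0.0161%) in knockout, and 0 of the 10 enzymes were among them. Chl1 and Rpl29 were the higher genes, and Fxr1 and the pseudogene Tmem181b-ps the lower ones. By DESeq2's Wald test and by limma voom the number of enzymes past the threshold was also 0. The adjusted p was 0.998 by edgeR for each of the 10 enzymes. An unadjusted p under 0.05 was found for 3.23% of all genes tested and for 1 of the 10 enzymes, Aldoc. The log2 fold change was below 0 for 8 of the 10 enzymes, against 50.4% of all genes, with a median of -0.04 against -0.00 over all genes tested. Without wild type replicate 3, 4 of the 10 were below 0. The markers of parvalbumin neurons themselves lay the same way, with 8 of 12 below 0 and a median of -0.06, and Pvalb stood at -0.10, like Ldhb. The excitatory neuron markers lay the other way, with 8 of 12 above 0 and a median of 0.09, as did the oligodendrocyte markers, with 9 of 12 above 0 and a median of 0.20. The astrocyte markers had 9 of 12 above 0 and a median of 0.05. Of the other interneuron markers tested, 4 of 7 were below 0, with a median of -0.10. Of the microglia and endothelium markers tested, 5 of 8 were below 0, with a median of -0.07. Other cell types thus lay on both sides of 0. In each of these lists 0 markers passed the edgeR test, and their part in the enzyme values was not tested.

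**Figure D3:**
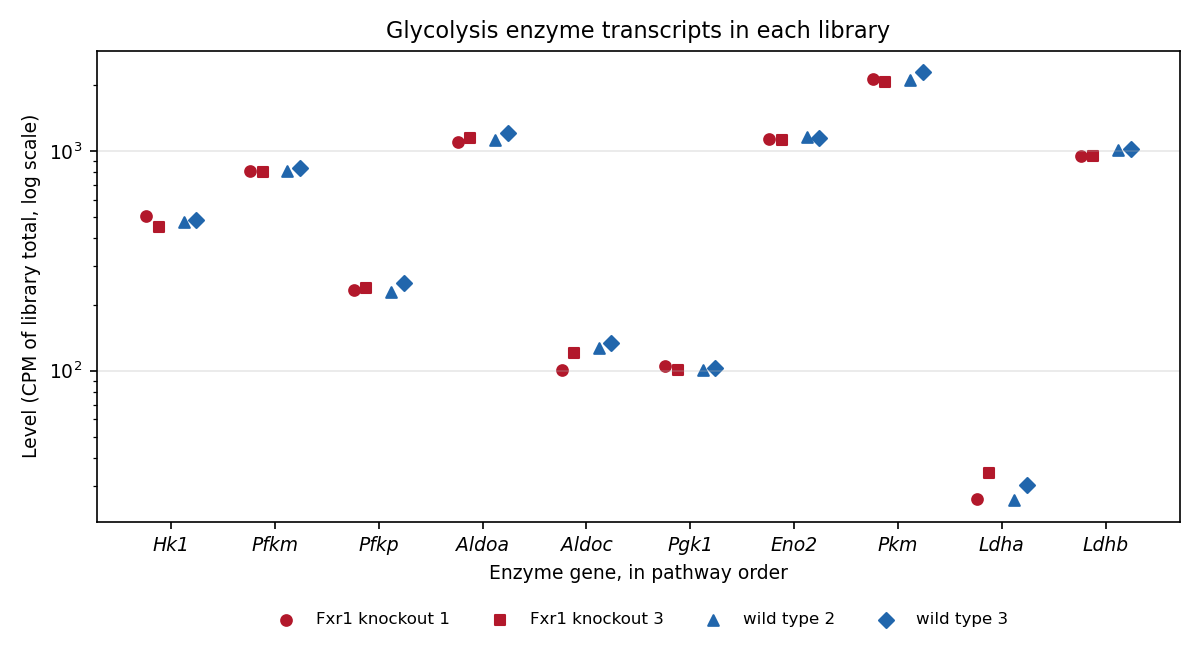
Level of each enzyme gene in pathway order (vertical axis, CPM of the library total, log scale) in the 2 knockout libraries (red) and the 2 wild type libraries (blue). For Aldoc, Eno2, Ldhb and Pfkm both knockout libraries lie below both wild type libraries, and for the other 6 genes the genotypes overlap.

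Aldoc had the smallest p of the 10. It measured 101 and 119.8 CPM in knockout, against 127 and 133 CPM in wild type. Both knockout libraries were lower than both wild type libraries, and knockout replicate 1, which also had the most Rn45s, was the lowest. The part of Rn45s in this was not tested. The log2 fold change was -0.24 (SE 0.09; 95% interval -0.42 to -0.06, not adjusted for the number of genes), with an unadjusted p of 0.00973 and an adjusted p of 0.998 by edgeR. Without knockout replicate 1 the log2 fold change was -0.13, and without knockout replicate 3 it was -0.36 (adjusted p = 0.183 by edgeR). Aldoc is also a transcript of astrocytes, and the part of astrocyte RNA in its level was not tested. Relative to the wild type mean, Aldoc stood at 77.3% and 92.1% in knockout and 97.7% and 102% in wild type, and the astrocyte markers at 98.1% and 109% in knockout and 103% and 97.4% in wild type. Of the 12 astrocyte markers tested, 9 had a log2 fold change above 0, 3 below 0 and 0 passed, while all 13 had counts. Between the knockout libraries, Aldoc and the astrocyte markers were both higher in replicate 3. Between the wild type libraries they went opposite ways, with Aldoc higher in replicate 3 and the astrocyte markers higher in replicate 2.

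**Figure D4:**
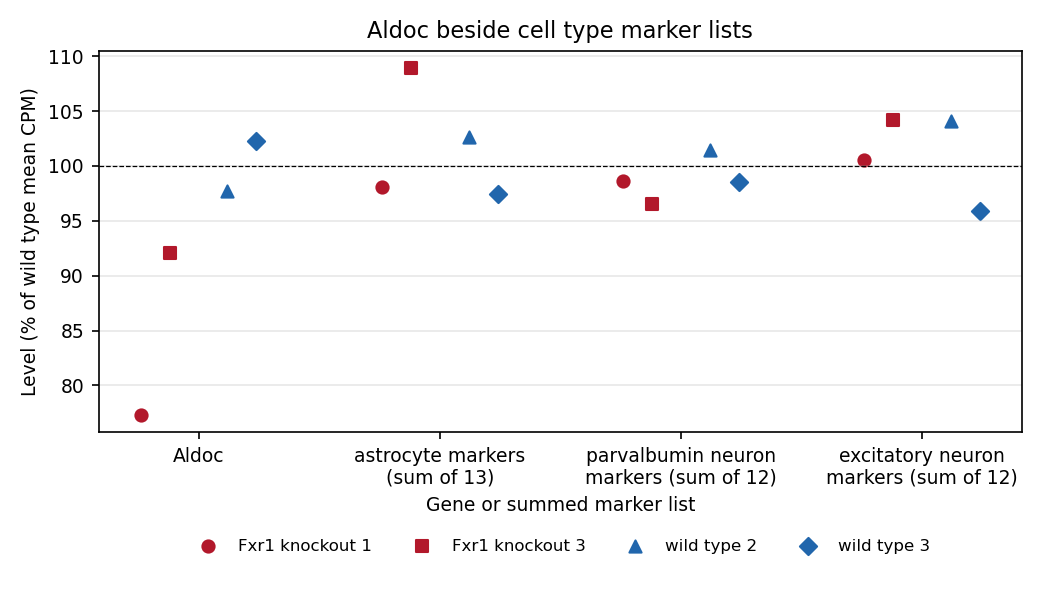
Level of Aldoc and of 3 summed marker lists (vertical axis, percent of the wild type mean CPM; the axis does not start at 0) in each knockout (red) and wild type (blue) library. Aldoc stands at 77.3% and 92.1% in knockout, below both wild type libraries, while the astrocyte list overlaps between the genotypes.

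Ldhb measured 943 and 948 CPM in knockout, against 1011 and 1020 CPM in wild type. The genotypes did not overlap, and the libraries of each genotype lay closer to each other than to the other genotype. The log2 fold change was -0.10 (SE 0.06; interval -0.23 to 0.03; edgeR adjusted p = 0.998). It stayed between -0.11 and -0.09 under all 11 alternatives run, and passed under none of them. Its partner Ldha measured 26.1 and 34.3 CPM in knockout and 25.7 and 30.2 CPM in wild type, so the genotypes overlapped. Ldha had the widest interval of the 10, with a log2 fold change of 0.11 (SE 0.13; interval -0.17 to 0.39), which turned to -0.09 without knockout replicate 3 and to -0.01 without wild type replicate 2.

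At the upper steps, Hk1 measured 504 and 451 CPM in knockout and 477 and 484 CPM in wild type, with both extremes in the knockout group and a log2 fold change of -0.01 (SE 0.07). Pfkm measured 809 and 801 CPM in knockout and 813 and 838 CPM in wild type, with a log2 fold change of -0.04 (SE 0.07). Pfkp measured 233 and 239 CPM in knockout and 227 and 249 CPM in wild type, so that the wild type libraries enclosed the knockout ones (log2 fold change -0.01, SE 0.07). Aldoa measured 1100.5 and 1141 CPM in knockout and 1124 and 1202 CPM in wild type, and overlapped likewise (log2 fold change -0.05, SE 0.07).

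At the lower steps, Pgk1 measured 105 and 101 CPM in knockout and 101 and 103 CPM in wild type, with a log2 fold change of 0.02 (SE 0.08). Eno2 measured 1133 and 1124 CPM in knockout and 1163 and 1151 CPM in wild type. The Eno2 groups did not overlap, but its log2 fold change was only -0.04 (SE 0.06). Pkm, the most abundant of the 10 by counts, measured 2117 and 2059 CPM in knockout and 2093 and 2283 CPM in wild type, and overlapped (log2 fold change -0.07, SE 0.07).

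In all, 4 of the 10 enzymes (Aldoc, Eno2, Ldhb and Pfkm) had both knockout libraries below both wild type libraries and 0 had both above, where 15.4% of all genes tested had the first pattern and 14.8% the second. With TMM-scaled totals Pfkm no longer did, which left 3, where 15.2% of all genes tested did. Of the 12 parvalbumin neuron markers, 5 (Pvalb, Gad1, Gad2, Erbb4 and Ppargc1a) had both knockout libraries below both wild type libraries and 1 had both above. Of the 12 excitatory neuron markers, 1 had both below and 4 had both above. For the oligodendrocyte markers these counts were 0 and 2, and for the astrocyte markers 0 and 0. They were 1 and 1 for the other interneuron markers, and 1 and 0 for those of microglia and endothelium. For the 8 enzymes other than Aldoc and Ldha, the unadjusted 95% intervals lay between log2 fold changes of -0.23 and 0.19, or 0.851-fold and 1.14-fold. With 2 libraries on each side, the smallest p of a two-sided exact permutation test is 0.333, and none is reported for single genes.

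**Figure D5:**
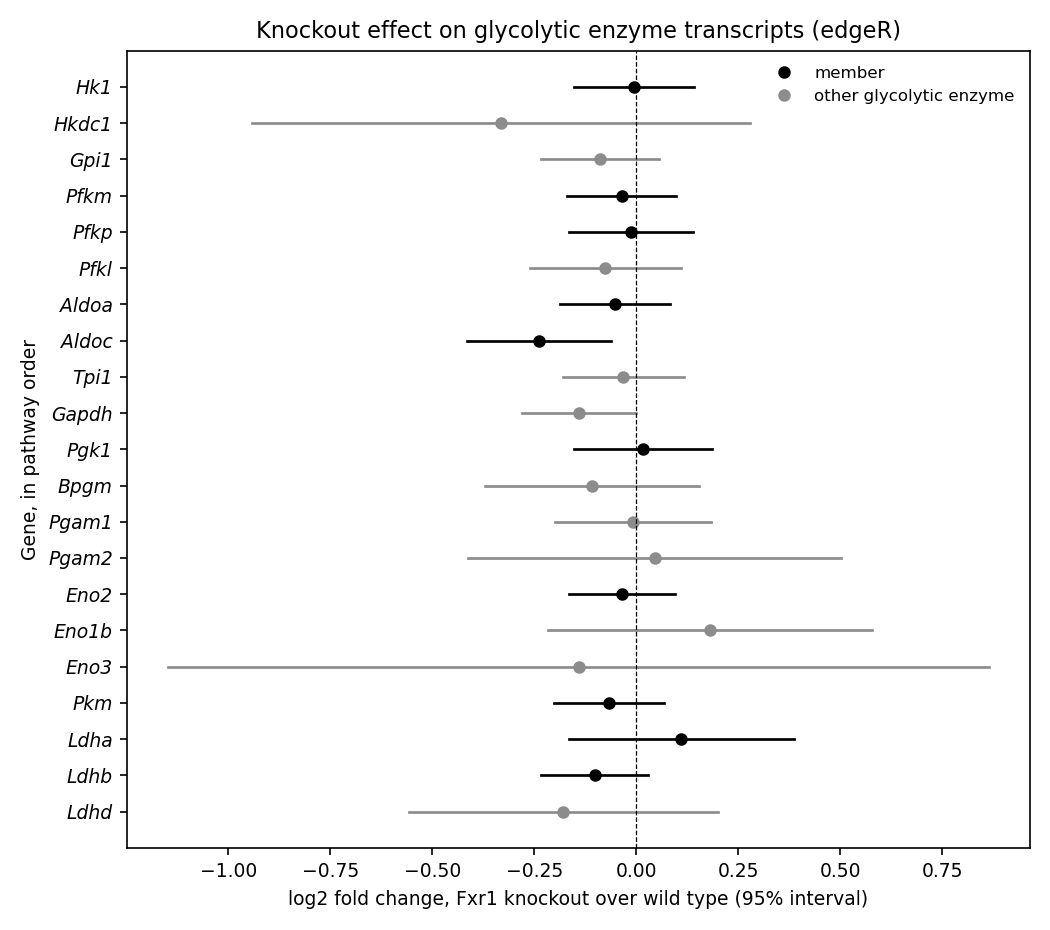
Log2 fold change of Fxr1 knockout over wild type (point) with its 95% interval from the edgeR fit (line) for the 10 members (black) and the other tested glycolytic enzymes (grey), in pathway order. The intervals of all members but Aldoc include 0, and Aldoc lies at -0.24.

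The other steps of glycolysis were measured as well. Of 20 further enzyme genes, 11 passed the filter on low counts and 0 passed the edgeR test. Their log2 fold changes were below 0 for 9 and above 0 for 2, with a median of -0.09, but without wild type replicate 2 only 5 were below 0. Gapdh, which oxidises glyceraldehyde phosphate, measured 520.4 and 543 CPM in knockout and 565 and 607 CPM in wild type, and the genotypes did not overlap (log2 fold change -0.14, SE 0.07; edgeR adjusted p = 0.998). Its count is uncertain, as 82.5% of its windows recur in other genes, mostly pseudogenes. Gpi1, the second enzyme of the pathway, measured 472 and 454 CPM in knockout and 520.3 and 465 CPM in wild type (log2 fold change -0.09, SE 0.07). Tpi1, which interconverts the triose phosphates, stood at a log2 fold change of -0.03 (SE 0.07), and the mutase gene Pgam1 at -0.01 (SE 0.09). Pfkl stood at -0.08 (SE 0.09), the bisphosphoglycerate mutase gene Bpgm at -0.11 (SE 0.13) and the D-lactate dehydrogenase gene Ldhd at -0.18 (SE 0.18). The testis forms Pgk2 and Ldhc were listed with 0 counts in all libraries.

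Regulators of the pathway did not pass either. Of 14 listed, 13 were tested, with 6 above 0, 7 below and 0 past the threshold. Hif1a, the oxygen-sensing factor that drives many glycolytic genes, measured 132 and 140 CPM in knockout and 143 and 163 CPM in wild type. The groups did not overlap, with a log2 fold change of -0.17 (SE 0.08; unadjusted p = 0.0476 and adjusted p = 0.998 by edgeR). Fzr1, an activator of the ubiquitin ligase that degrades the glycolysis activator Pfkfb3, had a log2 fold change of 0.16 (SE 0.10). Pfkfb2, which makes an activator of phosphofructokinase, stood at -0.07 (SE 0.09), and Prkaa2, a catalytic subunit of the energy sensor AMPK, at 0.09 (SE 0.11). Tigar, a brake on glycolysis listed as 9630033F20Rik, stood at 0.02 (SE 0.09).

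Genes that bring in glucose and exchange lactate numbered 12, of which 9 were tested, with 3 above 0, 6 below and 0 past the threshold. Slc2a3, the neuronal glucose transporter, measured 159 and 183 CPM in knockout and 177 and 166 CPM in wild type (log2 fold change -0.01, SE 0.08). Bsg, the chaperone of the lactate transporters, had a log2 fold change of -0.08 (SE 0.07), its relative Emb 0.01 (SE 0.11) and the inositol transporter gene Slc2a13 -0.06 (SE 0.07).

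Beyond pyruvate, the 15 genes of its entry into mitochondria had 5 values above 0 and 10 below, and 0 passed. Pdha1, the catalytic subunit of pyruvate dehydrogenase, measured 413 and 404 CPM in knockout and 399 and 410.1 CPM in wild type (log2 fold change 0.01, SE 0.07). Dld stood at 0.01, Dlat at 0.02 and Pcx, which makes oxaloacetate from pyruvate, at -0.01. Mpc2, a subunit of the mitochondrial pyruvate carrier, had the smallest p of this list at a log2 fold change of -0.16 (SE 0.10), and Pdhx followed at -0.07 (SE 0.09). Of the 10 genes of the NADH shuttles, which pass on the electrons that glycolysis sets free, 3 were above 0, 7 below and 0 passed. Mdh1 (-0.07), Got1 (-0.05), Mdh2 (-0.05) and Got2 (0.02), of the malate and aspartate shuttle, all had standard errors of 0.07. Gpd1, of the glycerol phosphate shuttle, measured 6.69 and 6.51 CPM in knockout and 4.33 and 4.76 CPM in wild type. Its groups did not overlap, and its log2 fold change was 0.54 (SE 0.23; unadjusted p = 0.0296 and adjusted p = 0.998 by edgeR). Slc25a13, an aspartate carrier, stood at -0.28 (SE 0.20).

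Side routes of glucose were also measured. The 8 genes of the pentose phosphate pathway had 5 values above 0 and 3 below, with Tkt at -0.03, G6pdx at -0.05, Pgd at 0.03, Taldo1 at 0.07, H6pd at 0.09 and Rpia at 0.36 (SE 0.24). The 11 genes of glycogen metabolism had 6 above 0 and 5 below, with Pgm2l1 at 0.11, the brain glycogen phosphorylase gene Pygb at 0.06, Pgm2 at 0.15 and the liver phosphorylase gene Pygl at -0.91 (SE 0.53, at 0.583 to 2.58 CPM). In both lists 0 genes passed; without knockout replicate 3, 1 glycogen gene did, the phosphorylase gene Pygm, which was singled out after its values were seen. Pygm had 16.5 and 33.8 CPM in knockout and 19.4 and 37.3 CPM in wild type, so libraries of the same genotype differed more than the genotypes did, and over all libraries its log2 fold change was -0.18 (SE 0.65). Ppargc1a, a regulator of mitochondrial genes that marks parvalbumin neurons, measured 424 and 387 CPM in knockout and 489 and 432 CPM in wild type (log2 fold change -0.18, SE 0.07; unadjusted p = 0.0220 and adjusted p = 0.998 by edgeR).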

How the data were processed

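The deposited values were raw counts per gene in 1 matrix; the labels' protocols name a stranded total RNA kit (SMARTer), and the submitters' processing notes name STAR and mm10, while for the counter, annotation and multi-mapped reads nothing is stated. Of its columns, 2 carry the title of the same wild type library (replicate 1) and were not used, and knockout replicate 2 was not analysed here. Replicate numbers follow accession order, and nothing says that libraries came from separate animals, so the spread behind each p-value is that between libraries.

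Counts were filtered (filterByExpr), TMM-scaled and tested with edgeR 4.0.16 (quasi-likelihood, robust) in R 4.3.3, with Benjamini-Hochberg adjustment over 12449 genes at 0.05. Intervals are at 95%. CPM used library totals. Lengths and shared windows came from GENCODE M21. Eno1b and Tigar were matched through RefSeq synonyms. The alternatives were other scalings and filters, a non-robust fit, DESeq2 1.42.0, limma 3.58.1 voom, each library left out, and other lengths; the unshared-window length was chosen after seeing the data. With counts simulated for 12334 genes, the test recovered 34.9% of changes of 1.25-fold and 82% of 1.5-fold, with 12 false calls. The simulation changed 43, 50, 57 and 50 genes by 1.25-fold, 1.5-fold, 2-fold and 4-fold. All were higher-expressed genes, and the simulated spread depended on level only. Many more genes passed there than the 4 of the real data, which loosens the adjusted threshold. The rates may thus overstate what could be recovered here.

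The members and gene lists were chosen with earlier results of these data known. Named were all members, Fxr1, genes past the threshold, other glycolytic enzymes of at least 10 CPM, and per pathway list the 4 highest in CPM and the 2 with the smallest p. The result of 1 glycogen gene that this rule names is not reported here. Hk2, Eno1, Eno1b, Pgk2, Ldhc, Pygm, Pitrm1 and Ppargc1a were named after their values were seen.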

Additional observations from a re-analysis of the deposited data

How the results depend on the processing

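The number of enzymes past the threshold was 0 under all 12 alternatives, and the Fxr1 log2 fold change stayed between -2.47 and -2.42. The 4 genes changed over the whole table (2 higher, 2 lower) became 1 with library totals (0 higher, 1 lower), 13 with no filter (6 higher, 7 lower) and 2 by DESeq2 (1 higher, 1 lower). The lower count was 1 with a filter at 5 CPM, a non-robust fit or limma voom. Leaving out 1 library gave 9 to 48 genes, with 4 to 21 higher and 5 to 37 lower: 48 without knockout replicate 3, 29 without knockout replicate 1, 25 when wild type replicate 3 was omitted and 9 when wild type replicate 2 was. These fits leave 1 genotype with a lone library that is assumed to vary like the other genotype. Enzymes below 0 then numbered 4 to 10, the other glycolytic enzymes below 0 numbered 5 to 10, and glycogen genes past the threshold 0 to 1.

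Small fold changes changed sign when 1 library was left out. The log2 values then ranged from -0.102 to 0.0841 for Hk1, -0.0846 to 0.0660 for Pfkp, -0.106 to 0.00666 for Aldoa, -0.0278 to 0.0595 for Pgk1, -0.134 to 0.00755 for Pkm and -0.0878 to 0.282 for Ldha. The sign change came on omitting knockout replicate 3 (Hk1, Ldha), knockout replicate 1 (Pgk1), wild type replicate 2 (Pgk1, Ldha) or wild type replicate 3 (Hk1, Pfkp, Aldoa, Pkm). Aldoc stayed below 0 in all 11 alternatives, with adjusted p (edgeR, DESeq2 or limma) between 0.183 and 0.999994. The cause was not tested.

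Isozyme shares moved with the length used. Shares given on unshared windows divide the full counts of each gene by its number of such windows. No reads were counted on those windows alone. Aldoc averaged 8.94% in knockout and 10.1% in wild type with no length scaling, 5.18% in knockout and 5.86% in wild type by longest transcript, and 4.45% in knockout and 5.04% in wild type on unshared windows. Ldhb averaged 96.9% in knockout and 97.3% in wild type unscaled, 97.8% in knockout and 98.1% in wild type by longest transcript, and 98.1% in knockout and 98.3% in wild type on unshared windows. Pfkp averaged 22.7% in knockout and 22.4% in wild type unscaled, 8.86% in knockout and 8.73% in wild type by longest transcript, and 19.6% in knockout and 19.4% in wild type on unshared windows. No paired analysis was possible because the labels give the genotypes no shared numbers, and those used here follow accession order. Ldha had the fewest counts of the 10 enzymes, at 249 to 353 per library.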

Other observations

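Transcripts of other cell types were present in the pull-down at differing levels. The 12 oligodendrocyte markers summed to 293 and 418 CPM in knockout and 321 and 291 CPM in wild type, with knockout replicate 3 the highest, and 9 of the 12 had a log2 fold change above 0 while 0 passed the edgeR test. The 10 markers of other interneurons, led by Reln, summed to 258 and 314 CPM in knockout and 294 and 322 CPM in wild type. The 10 markers of microglia and endothelium summed to 20.4 and 26.5 CPM in knockout and 25.0 and 22.7 CPM in wild type, the lowest of these lists.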
